A study of Homo sapiens with 5 samples.

Results

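Polycomb repressive complex 2 and PIK3IP1 were followed through 10 genes of the deposited gene table: the methyltransferases EZH2 and EZH1, the core subunits EED, SUZ12, RBBP4 and RBBP7, the accessory subunits JARID2, MTF2 and PHF19, and PIK3IP1. The genes were taken by symbol and by no measured value, though earlier results of these data were known when they were chosen. Each was found among the 28442 genes of the table. All 10 passed the filter on low counts, and each averaged at least 5 CPM (counts scaled to the size of the library) over the libraries.

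Polycomb repressive complex 2 (PRC2) methylates lysine residues of histone H3 and keeps developmental genes silent. EZH2 and EZH1 are alternative catalytic subunits, EZH2 being the form of dividing cells, EED reads the methyl mark, SUZ12 holds the complex together, and RBBP4 and RBBP7 are histone-binding proteins that also serve other chromatin complexes. JARID2, MTF2 and PHF19 steer the complex to chromatin. PIK3IP1 is a membrane protein that restrains PI3-kinase, and in ovarian clear cell carcinoma without ARID1A, which belongs to the SWI/SNF remodelling complex, it is known as a gene that EZH2 silences.

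RNA was sequenced from TOV21G, an established cell line of ovarian clear cell carcinoma, which the study used as an ARID1A-mutated model for lowering the activity of the deacetylase HDAC6. Of the 5 libraries, 2 were controls: cells given a control hairpin (shControl) and cells given drug vehicle. The other 3 had repressed HDAC6, through a hairpin against it (shHDAC6) or through the inhibitors ACY1215 (ricolinostat) and CAY10603. All came from 1 cell line grown in RPMI with serum. The hairpin cells had been infected with virus and selected with puromycin, which the drug-treated cells had not, so shControl is the control of shHDAC6 and vehicle that of both inhibitors. Each treatment has 1 library, so the pairs carry no p-value, and intervals on them cover counting error only. The labels state neither the doses and times of the inhibitors nor the hairpin clone.

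Library totals ran from 43498805 to 57442767 counts. HDAC6 itself stood at 48.0 CPM in shControl and 29.2 with shHDAC6, and at 51.1 in vehicle, 33.2 with ACY1215 and 48.2 with CAY10603; an inhibitor acts on the enzyme, so its transcript checks only the hairpin label. ARID1A transcripts stood between 9.09 and 11.8 CPM. Of 9 markers of clear cell carcinoma, 7 were above 1 CPM in each library, with NAPSA and KRT7 below it, and their summed level ran from 673 to 923 CPM. Summed markers of leukocytes (0.660 to 2.38 CPM), endothelium (0.288 to 0.628 CPM) and erythroid cells (up to 0.157 CPM) were low. Those of fibroblasts ran from 25.1 to 38.7 CPM, with 27.6 in vehicle, 38.7 in ACY1215 and 37.4 in CAY10603. Most of the fibroblast sum was COL1A2 (22.1 to 33.7 CPM) and COL1A1 (2.35 to 4.55 CPM). The fibroblast markers PDGFRA, PDGFRB, DCN and LUM reached at most 1.34 CPM in any library. The part of all these markers in the results was not tested.

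The promoters of 5 of the genes are shown because 3 of these genes had the widest differences between ACY1215 and vehicle (PHF19, RBBP4 and EZH2), and EZH1 and PIK3IP1 differed less there; they were chosen after these values had been seen. Each line gives the 250 bases before the first start listed by RefSeq on GRCh38.p14, read along the gene's strand, with CCAAT boxes, on either strand, in capitals. A CCAAT box is a short element bound by the factor NF-Y, and it is common in promoters of genes used by dividing cells. PHF19 lies on chr9:120868912-120869161, minus strand, RBBP4 on chr1:32650958-32651207, plus strand, and EZH2 on chr7:148884292-148884541, minus strand. EZH1 lies on chr17:42745041-42745290 and PIK3IP1 on chr22:31292535-31292784, both on the minus strand.
PHF19: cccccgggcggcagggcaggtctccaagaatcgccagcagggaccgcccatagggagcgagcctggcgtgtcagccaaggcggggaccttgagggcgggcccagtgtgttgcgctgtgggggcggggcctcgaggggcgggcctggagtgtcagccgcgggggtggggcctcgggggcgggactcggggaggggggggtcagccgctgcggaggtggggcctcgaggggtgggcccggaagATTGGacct
RBBP4: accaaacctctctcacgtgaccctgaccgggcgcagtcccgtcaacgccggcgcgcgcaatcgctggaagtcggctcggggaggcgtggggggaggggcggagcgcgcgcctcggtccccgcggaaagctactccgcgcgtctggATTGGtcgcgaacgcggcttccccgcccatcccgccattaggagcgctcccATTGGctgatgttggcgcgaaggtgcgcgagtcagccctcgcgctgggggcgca
EZH2: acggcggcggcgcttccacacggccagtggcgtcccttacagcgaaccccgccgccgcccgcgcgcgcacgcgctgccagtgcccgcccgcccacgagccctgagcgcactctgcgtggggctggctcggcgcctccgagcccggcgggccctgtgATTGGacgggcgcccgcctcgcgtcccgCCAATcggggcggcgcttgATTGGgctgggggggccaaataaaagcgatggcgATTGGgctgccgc
EZH1: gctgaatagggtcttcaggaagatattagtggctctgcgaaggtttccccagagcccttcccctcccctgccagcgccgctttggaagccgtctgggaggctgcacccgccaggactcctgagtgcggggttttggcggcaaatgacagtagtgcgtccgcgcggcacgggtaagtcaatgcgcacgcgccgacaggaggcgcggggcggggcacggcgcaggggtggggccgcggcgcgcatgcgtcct
PIK3IP1: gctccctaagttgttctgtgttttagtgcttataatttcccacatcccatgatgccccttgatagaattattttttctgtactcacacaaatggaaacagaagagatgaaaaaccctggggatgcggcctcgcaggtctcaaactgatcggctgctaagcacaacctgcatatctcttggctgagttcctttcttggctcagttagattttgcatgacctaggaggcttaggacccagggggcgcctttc

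In windows from 250 bases before to 50 after the start, CCAAT was found on either strand in 7 of the 10 first-listed promoters. It was found in 34.6% of 35116 RefSeq promoters of this length. The shares of promoters given here count every listed start of a gene, not the first alone, so the sets are unlike. EZH2 held 4 CCAAT boxes at its first-listed start, between positions -94 and -9 from it, which 0.991% of promoters matched or passed. Its other listed start held no CCAAT box. Among the first-listed promoters of the other genes, RBBP4 held 2, and PHF19, EED, SUZ12, JARID2 and RBBP7 held 1 each. MTF2, EZH1 and PIK3IP1 held none. A search for E2F sites with the words TTTCGCGC, TTTGGCGC, TTCCCGCC and TTTCCCGC, of which the last 2 can overlap, found 1 in EZH2 just after the start (bases 2 to 9), 1 in SUZ12 and 1 in MTF2, against 5.03% of all promoters with any of them. At the other listed start of PHF19, an E2F word lay 152 to 145 bases before the start, and the other listed start of EZH2 held none. The words TTTGAA and TTTAAA of the cell cycle element CHR, which 24.0% of promoters held, were found in SUZ12 and JARID2 only among the first-listed promoters of the 10 genes. GC content over the first-listed promoters of the 10 genes ran from 48.3% in PIK3IP1 and 52.3% in EED to 76% in PHF19 and 78.3% in RBBP7. These are matches of letters and no measurement of binding.

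The complex's genes differed widely in level. On the authors' length-corrected FPKM scale, RBBP7 was the most abundant, with 147, 163 and 181 FPKM as its lowest, median and highest level over the 5 libraries, and JARID2 the least, with 3.69, 4.61 and 5.23 FPKM. The ranges of these 2 over the libraries overlapped with no neighbour's, while the ranges of the other 8 overlapped step by step. Within each library MTF2 was above EZH2, and EZH2 above RBBP4. MTF2 had a median level of 33.6 FPKM and EZH2 of 32.1 FPKM, followed by RBBP4 at 20.7, EED at 16.8, PHF19 at 16.6, SUZ12 at 12.8, EZH1 at 11.5 and PIK3IP1 at 9.01 FPKM. In fold terms PHF19 had the widest spread, from 6.40 to 22.7 FPKM.

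**Figure D1:**
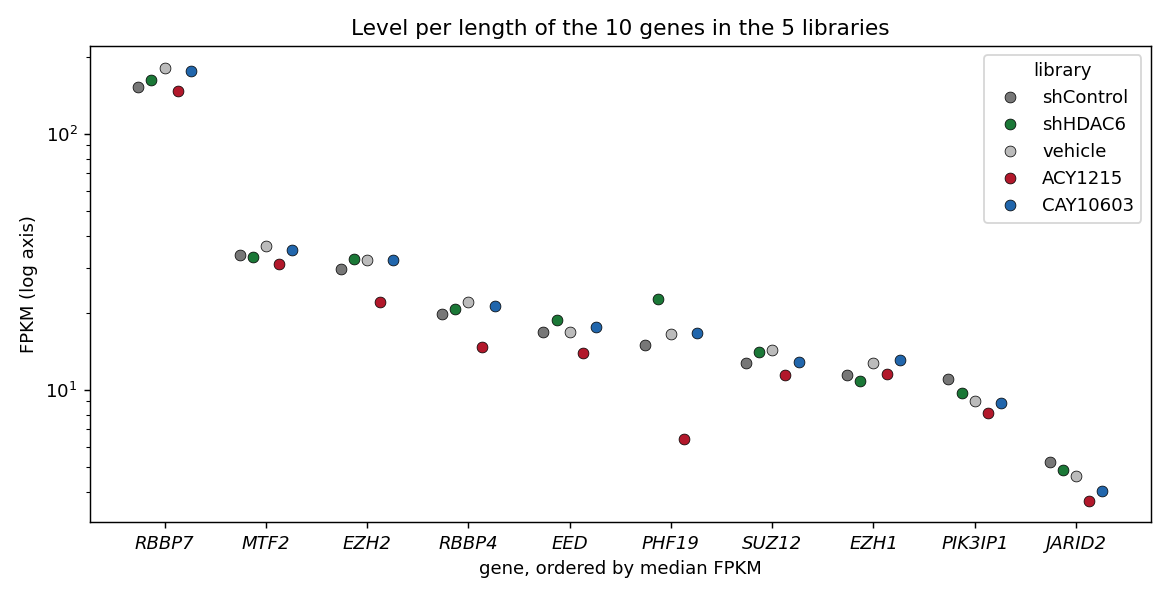
Level of each of the 10 genes in the authors' FPKM (log axis) in the 5 libraries, genes ordered by median. RBBP7 lies above and JARID2 below all others in each library, and the points of PHF19 spread from 6.40 to 22.7 FPKM.

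Among paired subunits, the ratio of EZH2 to EZH1 in FPKM was 2.61 in shControl and 3.01 with shHDAC6, and 2.53 in vehicle, 1.91 with ACY1215 and 2.46 with CAY10603. EZH2 was thus the more abundant catalytic transcript in all 5 libraries. The EZH2 to EZH1 ratio was lower with ACY1215 than in vehicle on both scales. There the log2 differences in CPM were -0.47 for EZH2 and -0.15 for EZH1. With shHDAC6 and CAY10603 the difference of this ratio depended on the scale. With shHDAC6 the log2 differences in CPM were 0.12 for EZH2 and 0.13 for EZH1, so the higher ratio there was not seen in CPM. With CAY10603 EZH1 differed by -0.14 in CPM and by 0.04 in FPKM. The ratio of MTF2 to PHF19, alternative Polycomb-like subunits, was 2.24 in shControl and 1.45 with shHDAC6, and 2.19 in vehicle, 4.83 with ACY1215 and 2.09 with CAY10603. This ratio was highest in ACY1215 and lowest in shHDAC6. The ratio of RBBP7 to RBBP4 was 10.0 in ACY1215 and between 7.73 and 8.25 in the other 4 libraries.

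With the hairpin against HDAC6, the core subunits of PRC2 stood slightly above the control hairpin, and with ACY1215 they stood below vehicle. EZH2 measured 63.5 CPM in shControl and 69.1 with shHDAC6, and 64.4 in vehicle, 46.7 with ACY1215 and 64.9 with CAY10603. The ACY1215 library was low and the other 4 lay close together. On the log2 scale the EZH2 difference was 0.12 for shHDAC6 over shControl (95% counting interval 0.05 to 0.19), -0.47 for ACY1215 over vehicle (-0.54 to -0.39) and 0.01 for CAY10603 over vehicle (-0.06 to 0.08). The EZH2 level in ACY1215 was thus 0.724 times that in vehicle.

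RBBP4 followed the same order of libraries in the drug experiment. It measured 152 CPM in shControl and 158 with shHDAC6, and 166 in vehicle, 119 with ACY1215 and 167 with CAY10603, with log2 differences of 0.05 (0.01 to 0.10), -0.48 (-0.53 to -0.44) and 0.01 (-0.04 to 0.05). Its near relative RBBP7 had a smaller difference with ACY1215. RBBP7 measured 274, 293, 320, 277 and 322 CPM in the same order of libraries, and its log2 difference was -0.21 (-0.24 to -0.17) for ACY1215 over vehicle.

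EED measured 29.6 CPM in shControl and 33.0 with shHDAC6, and 29.8 in vehicle, 25.8 with ACY1215 and 31.1 with CAY10603. SUZ12 measured 54.5, 59.2, 59.7, 51.1 and 55.3 CPM in that order. Both were lowest in ACY1215, with log2 differences from vehicle of -0.21 (-0.32 to -0.10) for EED and -0.22 (-0.30 to -0.15) for SUZ12. A pseudogene copy, SUZ12P1, has its own row at 7.90 to 10.7 CPM, and reads that fit both may have been split between them.

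EZH1, the catalytic subunit that resting cells also hold, had another order of libraries than EZH2 in CPM. Its lowest library was shControl and its highest vehicle, where those of EZH2 were ACY1215 and shHDAC6. It measured 31.2 CPM in shControl and 34.0 with shHDAC6, and 37.6 in vehicle, 34.0 with ACY1215 and 34.1 with CAY10603. Its log2 difference from vehicle was -0.15 (-0.24 to -0.05) with ACY1215 and -0.14 (-0.24 to -0.04) with CAY10603. The CAY10603 interval lay below 0 for EZH1 and included 0 for EZH2. On the authors' FPKM scale EZH1 differed by 0.04 with CAY10603 and by -0.07 with shHDAC6, so both signs turned with the scale.

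**Figure D2:**
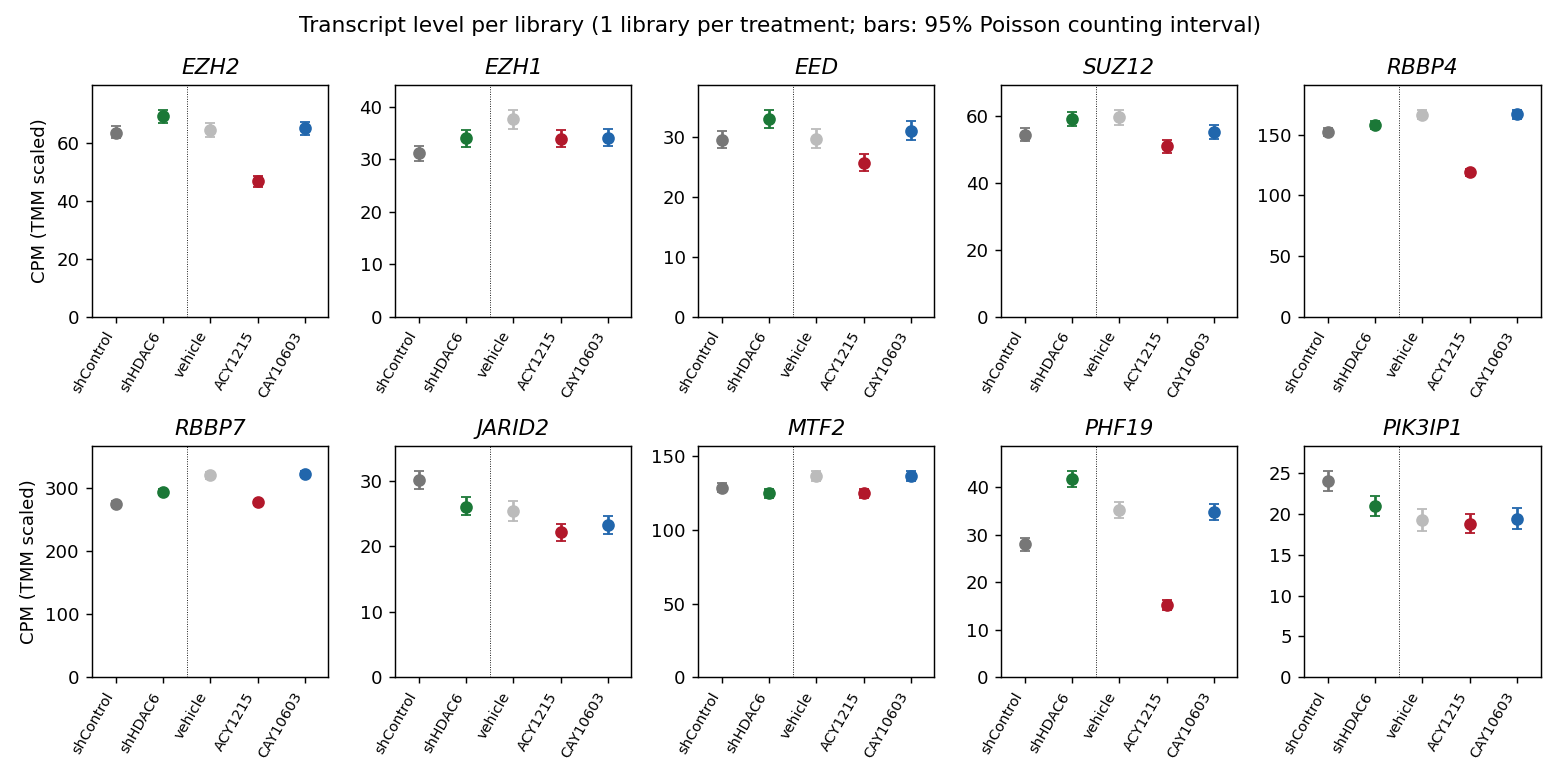
TMM-scaled CPM of each of the 10 genes in the 5 libraries, 1 panel per gene with its own axis from 0 and bars of the 95% Poisson counting interval. ACY1215 is the lowest library for EZH2, RBBP4, EED, SUZ12, JARID2, PHF19 and PIK3IP1, at 46.7 CPM for EZH2 and 15.3 CPM for PHF19.

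PHF19, an accessory subunit that binds methylated histone H3 and brings PRC2 to chromatin, varied most. It measured 28.0 CPM in shControl and 41.7 with shHDAC6, and 35.2 in vehicle, 15.3 with ACY1215 and 34.8 with CAY10603, from 795 counts in ACY1215 to 2200 in shHDAC6. The shHDAC6 library was the highest and ACY1215 the lowest of the 5, a range of 2.73-fold, wider than that of 97.1% of the 10741 genes averaging at least 5 CPM. The range of EZH2 was 1.48-fold and that of MTF2 1.10-fold, beside a median of 1.35-fold over all these genes. The log2 difference of PHF19 was 0.58 (0.48 to 0.67) for shHDAC6 over shControl, -1.20 (-1.33 to -1.08) for ACY1215 over vehicle and -0.02 (-0.12 to 0.08) for CAY10603 over vehicle. Its level with ACY1215 was 0.434 times that in vehicle, and its level with shHDAC6 was 1.49 times that in shControl. Set against vehicle instead, shHDAC6 differed by 0.25, and against the mean of both controls by 0.41.

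The other accessory subunits differed less. MTF2, a Polycomb-like subunit that binds DNA, measured 129 CPM in shControl and 125 with shHDAC6, and 137 in vehicle, 125 with ACY1215 and 137 with CAY10603. JARID2, which links PRC2 to target genes, measured 30.1 CPM in shControl and 26.1 with shHDAC6, and 25.4 in vehicle, 22.1 with ACY1215 and 23.3 with CAY10603. Unlike PHF19, JARID2 was lower in shHDAC6 than in shControl, by -0.21 on the log2 scale (-0.31 to -0.11). The shControl library was the highest of the 5 for JARID2, and against vehicle shHDAC6 differed by 0.04.

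PIK3IP1, the PI3-kinase inhibitor, was in no library with repressed HDAC6 above its own control by more than counting error. It measured 24.0 CPM in shControl and 21.0 with shHDAC6, and 19.2 in vehicle, 18.8 with ACY1215 and 19.4 with CAY10603. Its log2 difference was -0.19 (-0.31 to -0.08) for shHDAC6, -0.03 (-0.17 to 0.10) for ACY1215 and 0.01 (-0.12 to 0.15) for CAY10603, each against its own control. The drug-treated libraries and vehicle lay close together, and shControl was the highest of all. Set against vehicle instead, shHDAC6 differed by 0.13, so the sign of this difference turned with the control.

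**Figure D3:**
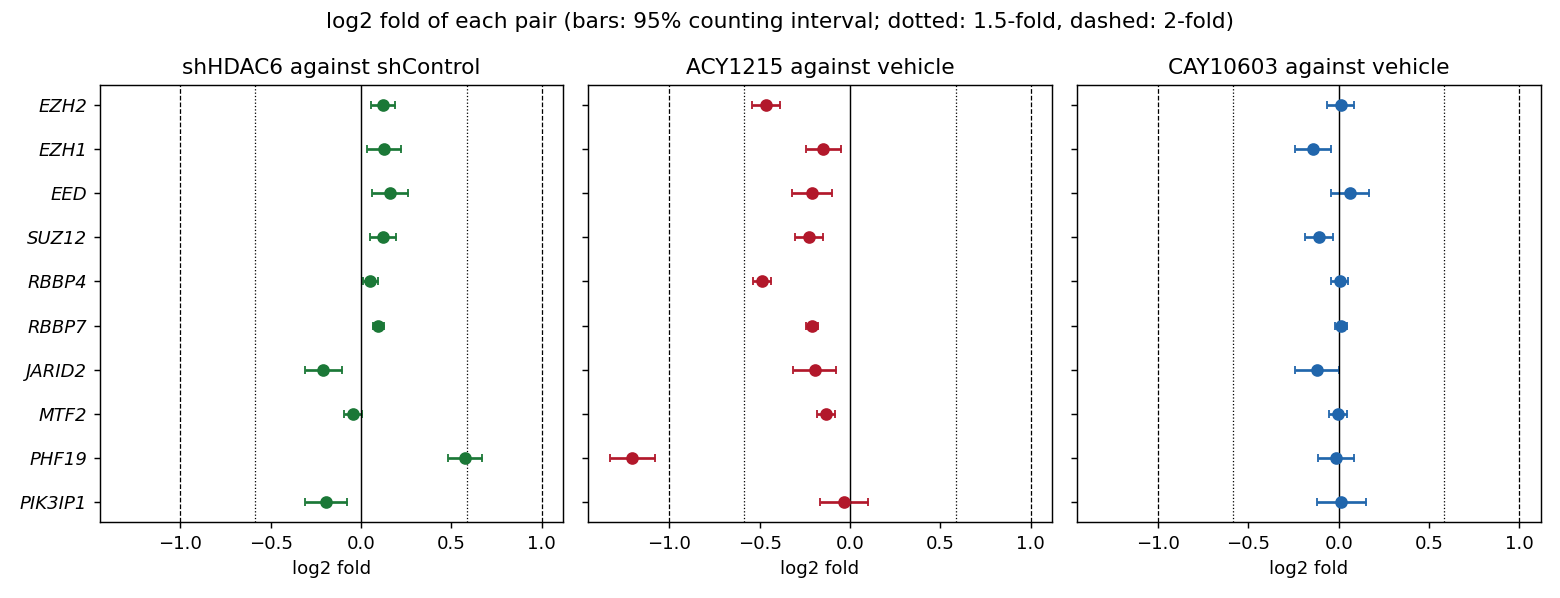
Log2 difference of each of the 10 genes in shHDAC6 against shControl and in ACY1215 and CAY10603 against vehicle, with 95% counting intervals. PHF19 stands at 0.58, -1.20 and -0.02, EZH2 at 0.12, -0.47 and 0.01, and PIK3IP1 near 0 with both inhibitors.

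Counted over the set, 7 of the 10 genes were higher in shHDAC6 than in shControl, where 50.7% of the 10741 genes were higher, and 3 were lower (JARID2, MTF2 and PIK3IP1), where 49.3% were lower. Counting intervals lay above 0 for 7 members (all but JARID2, MTF2 and PIK3IP1), as for 35.1% of genes, and below 0 for 2, as for 36% of genes. No member passed 1.5-fold, as 2.82% of genes did upward and 2.2% downward, and none passed 2-fold (0.438% and 0.251% of genes). The median log2 difference of the members was 0.11, beside 0.00 for all genes. Against vehicle instead of shControl, 5 of 10 were higher, and of the 6 core subunits 2 were higher in place of 6. On the authors' FPKM scale 5 of the 6 core subunits were higher than in shControl, with EZH1 lower.

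With ACY1215, all 10 were lower than in vehicle, where 50% of genes were lower, and PIK3IP1 was the only one whose interval included 0. Intervals lay below 0 for 9 of 10 members and for 37.8% of all genes. PHF19 alone passed 2-fold downward, as 3.04% of genes did, and it was also the only one past 1.5-fold, as 7.76% of genes were. Upward, no member passed 2-fold, as 1.67% of genes did, or 1.5-fold, as 5.86% did. The members' median log2 difference was -0.21, beside -0.00 for all genes, and their median size of change, 0.21, was close to the 0.22 of all genes. Against shControl instead of vehicle, 8 of 10 were lower, with EZH1 and RBBP7 higher, and PHF19 was lower by -0.87, short of 2-fold.

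With CAY10603, 5 of 10 were higher than in vehicle, where 51.5% of genes were higher, and 5 were lower, where 48.5% were. These signs are mostly of differences near 0 and turned with scaling: 1 of 10 was higher on total counts and 7 of 10 on DESeq2's size factors. Counting intervals lay below 0 for EZH1, SUZ12 and JARID2, that is 3 of 10, beside 22.9% of all genes, and above 0 for no member, beside 27.7%. No member passed 1.5-fold, as 0.344% of genes did upward and 0.698% downward. The median size of change was 0.01 for the members and 0.10 for all genes.

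The inhibitors share the vehicle library and their doses are not given, so their values stand side by side without a test. CAY10603 was above ACY1215 for all 10 genes, where 50% of genes were higher, with intervals above 0 for 7 of them, as for 36.6% of genes. The widest gaps were in PHF19 (1.19, 1.07 to 1.31), RBBP4 (0.49, 0.44 to 0.54) and EZH2 (0.48, 0.40 to 0.55). PHF19 was the only one past 2-fold, as 2.24% of genes were, and past 1.5-fold, as 5.91% were. The intervals included 0 for EZH1, JARID2 and PIK3IP1, with PIK3IP1 at 0.04 (-0.09 to 0.18) and JARID2 at 0.07 (-0.05 to 0.19).

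The controls also differed from each other. In shControl over vehicle, 2 of 10 members were higher (JARID2 at 0.25 and PIK3IP1 at 0.32), where 52.3% of genes were higher, and 8 were lower, where 47.7% were. For EZH1 (-0.27), RBBP7 (-0.22), JARID2 and PIK3IP1 this gap was wider than their difference with shHDAC6 and with ACY1215, and for SUZ12 (-0.13), RBBP4 (-0.13) and MTF2 (-0.09) it was wider than that with shHDAC6. For EZH2 (-0.02), EED (-0.01) and PHF19 (-0.33) it was narrower than their differences with shHDAC6 and ACY1215. Infection, selection, vehicle and library cannot be told apart in this gap.

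Testing the 3 libraries with repressed HDAC6 against the 2 controls in 1 model with the experiment type as a covariate (edgeR's quasi-likelihood test with Benjamini-Hochberg adjustment) called none of the 10 genes, and none of 13449 genes tested (0%). Unadjusted, 100 genes (0.744%) were under 0.05, none of them a member; DESeq2 and limma-voom also called no gene (112 and 122 unadjusted). EZH2 had a log2 fold change of -0.07 (SE 0.18, adjusted p = 1.00), PHF19 of -0.05 (SE 0.38, adjusted p = 1.00) and PIK3IP1 of -0.09 (SE 0.16, adjusted p = 1.00). The widest was JARID2 at -0.18 (SE 0.15, adjusted p = 1.00). JARID2 and MTF2 were below the own control in 3 of 3 treated libraries, as 10.8% of 10741 genes were. For MTF2 the counting interval included 0 with shHDAC6 (-0.04, -0.093 to 0.003) and with CAY10603 (-0.004, -0.05 to 0.05). The CAY10603 value of MTF2 was 0.01 with DESeq2's size factors, so its sign turned with scaling. HDAC6 itself had -0.50 (SE 0.21, adjusted p = 1.00) in this model. PHF19, high in shHDAC6 and low in ACY1215, had the widest standard error of the 10.

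Genes of cell division were also low in ACY1215, the library in which PHF19, EZH2 and RBBP4 were lowest. Of 30 genes of the G2 and M phases, all 30 were higher in shHDAC6 than in shControl (median 0.52), all 30 were lower in ACY1215 than in vehicle (median -1.40, 29 of them past 2-fold), and 22 were lower in CAY10603 (median -0.08). Of 32 genes of DNA replication, 30 were higher in shHDAC6 (median 0.45) and all 32 were lower in ACY1215 (median -0.998, 15 past 2-fold). In CAY10603 19 of the DNA replication genes were lower (median -0.02). Over all genes, 50.7% were higher in shHDAC6, 50% lower in ACY1215 (3.04% past 2-fold) and 48.5% lower in CAY10603. Between the controls, all 30 genes of the G2 and M phases were lower in shControl than in vehicle (median -0.58). Against the other control the medians of this list were -0.10 for shHDAC6, -0.77 for ACY1215 and 0.54 for CAY10603. Of the 32 DNA replication genes, 28 were lower in shControl than in vehicle (median -0.30), as 47.7% of all genes were. Their medians against the other control were 0.13 for shHDAC6, -0.64 for ACY1215 and 0.31 for CAY10603. Between the controls PHF19 differed by -0.33 and EZH2 by -0.02. The part of the cell division genes in the values of PHF19, EZH2 and RBBP4 was not tested. In bulk RNA, fewer cells in a phase and less of a transcript per cell cannot be told apart.

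E2F factors, which drive genes of the S phase, were counted with the RB family, which restrains them. Of 13 such genes, 11 were higher in shHDAC6 (median 0.20) and 8 were lower in ACY1215 (median -0.10, 4 past 2-fold). In CAY10603 7 were higher (median 0.05). Over all genes, 50.7% were higher in shHDAC6, 50% lower in ACY1215 (3.04% past 2-fold) and 51.5% higher in CAY10603. Between the controls, 10 of the 13 were lower in shControl than in vehicle (median -0.14), as 47.7% of all genes were. Against the other control the list medians were 0.07 for shHDAC6, -0.22 for ACY1215 and 0.19 for CAY10603. E2F1, an activator, had log2 differences of 0.64, -1.11 and 0.12 in shHDAC6, ACY1215 and CAY10603. E2F2 had 0.63, -1.60 and -0.18, and E2F8, a repressor of the family, 0.20, -1.70 and -0.06. Levels of E2F1 were low, from 2.44 CPM in ACY1215 to 7.38 CPM in shHDAC6.

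**Figure D4:**
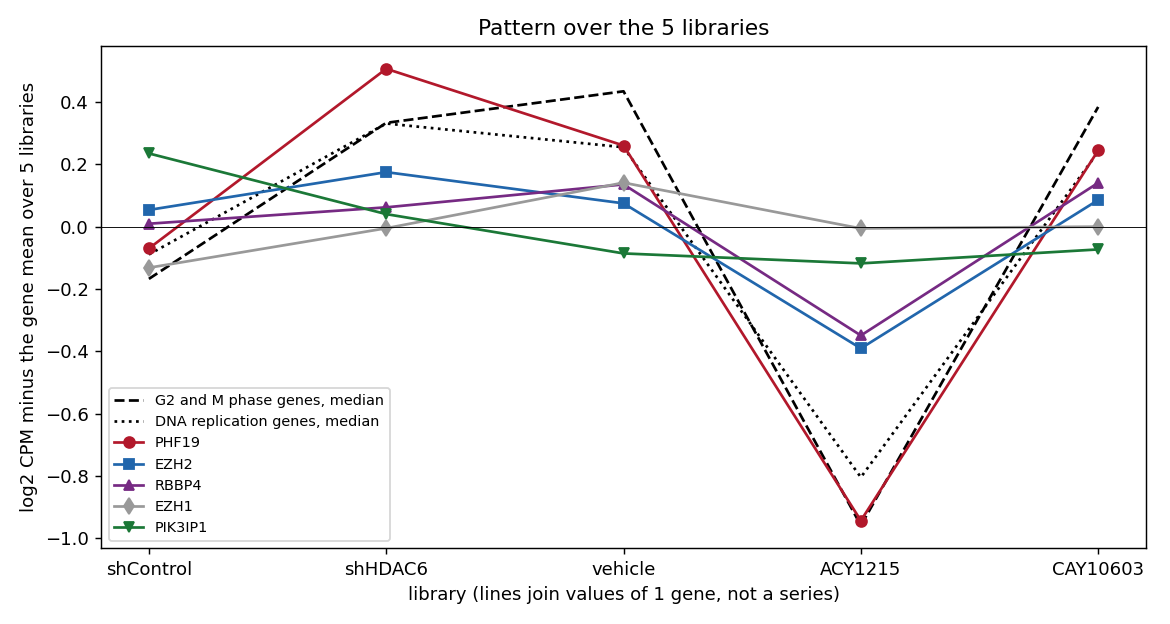
Log2 CPM of PHF19, EZH2, RBBP4, EZH1 and PIK3IP1 in the 5 libraries, each centred on its own mean, beside the medians of the cell division and DNA replication lists. PHF19 and both lists are lowest in ACY1215, while PIK3IP1 is highest in shControl.

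Across the 5 libraries, the genes with a pattern most like that of PHF19 were TK1, FEN1, PLK1, ORC1 and CENPF, with root-mean-square differences of centred log2 CPM from 0.0423 to 0.0715. These neighbours of PHF19 were looked up after its values had been seen. For EZH2 the closest of all other genes were KDM3B, WASF1, PRDX3, TRIOBP and VPS52 (0.0162 to 0.0239). For PIK3IP1 they were RFTN1, KLF13, EML1, PLIN2 and LARS2 (0.0159 to 0.0258). Such matches describe levels over 5 libraries and nothing further.

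The 4 measured accessory subunits of PRC2 outside the 10 genes lay closer to vehicle with ACY1215 than PHF19 did, from -0.17 to 0.07. PHF1, the remaining Polycomb-like subunit, measured 14.4 CPM in shControl and 21.2 with shHDAC6, and 19.2 in vehicle, 20.2 with ACY1215 and 18.5 with CAY10603, with log2 differences of 0.56, 0.07 and -0.06 from the own controls. In shHDAC6 PHF1 was thus higher by a fold close to that of PHF19, and in ACY1215 it was near vehicle. For PHF1 the shControl library was the lowest, at -0.41 against vehicle, so its shHDAC6 difference depended on the control. AEBP2, a partner of JARID2 in the complex, measured from 33.8 CPM in shHDAC6 to 39.9 CPM in shControl. Like JARID2, AEBP2 was highest in shControl and lower in shHDAC6, by -0.24.

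PRC1 is the other Polycomb complex, which ubiquitinates histone H2A. Of its 23 listed genes 21 were measured: 14 were higher in shHDAC6 (median 0.08), 14 were lower in ACY1215 (median -0.13) and 11 were lower in CAY10603 (median -0.02). The widest differences were in PCGF2 (0.57, -0.75 and -0.17 in shHDAC6, ACY1215 and CAY10603), PCGF6 (0.07, -0.70 and 0.06) and the corepressor BCORL1 (0.03, 0.86 and 0.32). Between the controls PCGF2 differed by -0.61 in shControl over vehicle, wider than its difference with shHDAC6. Of 4 measured genes that remove Polycomb marks or help to, 3 were higher in shHDAC6 and lower in both ACY1215 and CAY10603. These were the demethylase KDM6A (0.26, -0.28 and -0.03), the deubiquitinase BAP1 (0.38, -0.30 and -0.22) and its partner ASXL1 (0.23, -0.32 and -0.19). The remaining gene, ASXL2, went the other way in each (-0.10, 0.08 and 0.25). Over all genes, 50.7% were higher in shHDAC6, 50% lower in ACY1215 and 48.5% lower in CAY10603.

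RBBP4 and RBBP7 also serve the NuRD, SIN3, CAF-1 and NURF complexes. Of 22 genes listed for partner complexes of RBBP4 and RBBP7, with HAT1 counted beside those named, 12 were higher in shHDAC6 (median 0.02). In ACY1215 13 were lower (median -0.06), and in CAY10603 15 were higher (median 0.06). The large subunits of CAF-1, the chaperone that assembles nucleosomes behind the replication fork, were among the exceptions. CHAF1A measured 47.5 CPM in shControl and 61.6 with shHDAC6, and 62.5 in vehicle, 30.8 with ACY1215 and 62.2 with CAY10603, a log2 difference of -1.02 with ACY1215, and CHAF1B differed by -0.76 there. CHD3, a NuRD remodeller, differed by -0.83 with ACY1215 and by -0.08 with shHDAC6.

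Around PIK3IP1, the PI3-kinase genes showed no common direction. Of 12 measured genes of 15 listed, 8 were higher in shHDAC6 (median 0.08), 7 were lower in ACY1215 (median -0.06) and 6 were lower in CAY10603 (median 0.00). PIK3CD, a catalytic subunit, measured 19.7 CPM in shControl and 21.4 with shHDAC6, and 16.1 in vehicle, 25.8 with ACY1215 and 15.9 with CAY10603, a log2 difference of 0.68 with ACY1215. PIK3R5, a regulatory subunit, measured 10.8, 12.1, 22.3, 7.66 and 13.3 CPM in the same order of libraries, so that vehicle was the highest of the 5 and both controls differed by -1.04. AKT2, a kinase downstream, was higher by 0.63 in shHDAC6 and lower by -0.26 in ACY1215. These lists are described by counts and medians, which carry no test. The counts stand beside 50.7% of all genes higher in shHDAC6, 50% lower in ACY1215 and 48.5% lower in CAY10603.

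**Figure D5:**
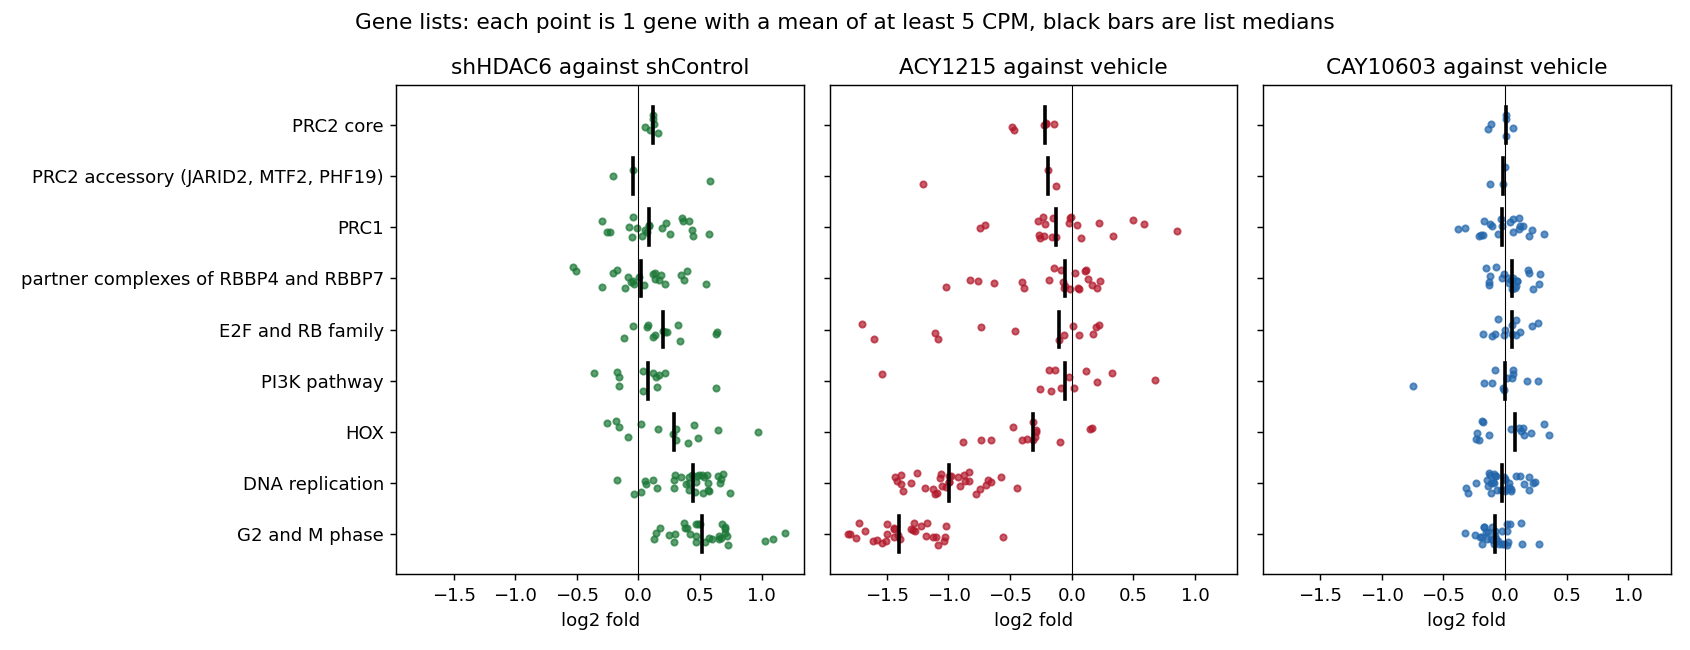
Log2 difference of each gene of the lists (points, genes averaging at least 5 CPM) and the median of each list (black bars) in shHDAC6 against shControl and in ACY1215 and CAY10603 against vehicle. The medians of cell division and DNA replication reach -1.40 and -0.998 with ACY1215, and that of the 6 core PRC2 genes is -0.22.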

How the data were processed

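The table holds gene counts and FPKM for 5 libraries of stranded total RNA. RSEM 1.2.3, edgeR and the build hg19 are named in the submitters' processing notes, with no role given. The deposited counts are estimated counts per gene by the authors, already given as whole numbers, and the deposited FPKM values are the authors' values per length and depth, used to compare levels between genes. Total counts ran from 43498805 to 57442767 per library. The spread between cultures cannot be estimated from 1 library per treatment.

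The 13449 genes that reached 1 CPM in 2 libraries or more were fitted with edgeR 4.0.16 in R 4.3.3 (TMM, robust quasi-likelihood test, experiment type as covariate, 2 residual degrees of freedom, threshold 0.05 after Benjamini-Hochberg adjustment). The p-values measure the spread between these libraries, which are different treatments. Single pairs are log2 ratios of CPM scaled by TMM, after adding a prior count of 2, over 10741 genes averaging at least 5 CPM. Their 95% intervals are exact binomial ones, and those of CPM are exact Poisson ones. The fit was tested on simulated data. DESeq2 1.42.0 and limma 3.58.1 (voom), other scalings, the other control, the authors' FPKM (pseudocount 0.1) and each library left out were the alternatives. Named beside the 10 members are HDAC6, ARID1A, genes of each list with the widest difference in any pair, and the 5 genes most like EZH2, PIK3IP1 and PHF19. The members and lists were chosen with earlier results of these data known. Promoters come from RefSeq on GRCh38.p14, with all 10 genes matched by symbol and the first listed start used. The table's coordinates were not used.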

Additional observations from a re-analysis of the deposited data

Results flagged for a closer look

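EZH1 and SUZ12 stood on opposite sides of their control in the hairpin and drug experiments, and this difference between experiments was not tested, with 1 library per treatment. EZH1 had a log2 difference of 0.13 in shHDAC6, -0.15 in ACY1215 and -0.14 in CAY10603. SUZ12 had 0.12 in shHDAC6, -0.22 in ACY1215 and -0.11 in CAY10603. The signs depended on the control and the scale. Against the other control EZH1 was at -0.15, 0.13 and 0.13 in the same order, and SUZ12 at -0.01, -0.09 and 0.02. On the authors' FPKM scale EZH1 was at -0.07, -0.14 and 0.04, while SUZ12 was at 0.13, -0.32 and -0.15.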

How the results depend on the processing

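The pooled model called no member under any alternative, and leaving out 1 library (1 residual degree of freedom) called no member either. Of all genes, 3 of 13257 were called without vehicle and 4 of 13340 without ACY1215, and none under the other alternatives. The sign of the pooled value turned for 7 members when 1 library was left out. The ranges were -0.21 to 0.12 for EZH2, -0.14 to 0.13 for EZH1, -0.0683 to 0.16 for EED, -0.17 to 0.12 for SUZ12, -0.22 to 0.0529 for RBBP4, -0.0946 to 0.10 for RBBP7 and -0.49 to 0.58 for PHF19. Without vehicle PHF19 was at 0.58 and EZH2 at 0.12, since only the hairpin pair then bears on the value, and without ACY1215 they were at 0.27 and 0.06. JARID2 (-0.21 to -0.16), MTF2 (-0.09 to -0.03) and PIK3IP1 (-0.19 to -0.01) kept their sign. In the drug experiment alone EED was at -0.0685, and without the covariate RBBP7 was at 0.00245. No paired analysis was possible because the labels give no replicate numbers; the experiment type, which the model holds as a covariate, already sets each treated library against its own control.

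Of the members past 1.5-fold, shHDAC6 had 1 (PHF19) in place of 0 with total count scaling and 1 with the authors' FPKM, and ACY1215 had 2 (PHF19 and RBBP4) in place of 1 with total count scaling. Past 2-fold, ACY1215 had 0 in place of 1 with the other control. Total counts and FPKM each moved the median of all genes with ACY1215 by -0.10, so changes there are to be read relative to that shift. PHF19 with ACY1215 was at -1.36 in FPKM and -1.04 against the mean of both controls. Depth limits none of the 10 genes, the least counted value being 795 counts. What limits them is 1 library per treatment.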

Other observations

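HOX genes are classical targets of Polycomb repression, and their list was compared in the same pairs as the lists above. Of 39 listed HOX genes, 14 averaged at least 5 CPM in these cells. In shHDAC6 10 of 14 were higher than in shControl (median 0.29), where 50.7% of all genes were higher. In ACY1215 12 of 14 were lower than in vehicle (median -0.31), where 50% were lower. In CAY10603 8 of 14 were higher (median 0.08), where 51.5% were higher. HOXC6 had log2 differences of 0.97, -0.65 and -0.19 in shHDAC6, ACY1215 and CAY10603, HOXD10 of 0.40, -0.88 and -0.18, and HOXB7 of -0.19, -0.74 and 0.21. The summed level of all listed HOX genes was 394 CPM in shControl and 444 with shHDAC6, and 438 in vehicle, 343 with ACY1215 and 465 with CAY10603. Against the other control the medians were 0.00 for shHDAC6, -0.15 for ACY1215 and 0.23 for CAY10603, so the shHDAC6 difference depended on the control. These are values of single libraries with no test.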
